A study of Mus musculus with 2 samples.

Results

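The circadian clock genes described here are 10 core members of the molecular clock, *Clock*, *Arntl*, *Per1*, *Per2*, *Per3*, *Cry1*, *Cry2*, *Nr1d1*, *Nr1d2* and *Dbp*, found by their symbols among the 23793 gene rows of each deposited table. All 10 were found, each in a single row with status OK in both libraries. They were measured in small-intestinal organoids, gel-embedded cultures of gut epithelium grown from the crypts of ChgA-GFP mice, whose green fluorescent protein (GFP) reports use of the chromogranin A gene. Cells of the dissociated organoids were separated by fluorescence into a GFP+ fraction, about 1% of the epithelial cells, and the GFP- remainder, and each fraction gave 1 library of polyadenylated RNA. Both groups share the reporter strain and a growth medium with epidermal growth factor, noggin and R-spondin. The mice's age, the number of animals or cultures pooled and the hour of collection were not stated in the labels. Levels are in FPKM, fragments per kilobase of a transcript relative to the size of the library, a unit per length that can be set side by side between genes. With 1 library per fraction no difference has a replicate error or a test, and differences are described by their size.

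The molecular clock is a feedback loop of transcription. The proteins CLOCK and BMAL1 (encoded by *Arntl*) bind E-box sequences together and switch on the *Per* and *Cry* genes, whose products return to the nucleus and repress CLOCK and BMAL1. A linked loop runs through REV-ERB alpha and beta (*Nr1d1* and *Nr1d2*), which repress *Arntl* and compete with the ROR receptors, and DBP carries the rhythm to D-box genes. In the gut the clock is known for daily rhythms of absorption, motility and epithelial renewal.

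The promoters of 2 paralogue pairs are shown here, with the regulatory letters of this loop marked where present. The members of these pairs had unlike values below, and a link of the letters to these values was not tested. The 250 bases before the annotated start are printed 5′ to 3′ from RefSeq (GRCm38.p6), with the E-box CACGTG and the D-box TTANGTAA in capitals, searched on both strands. For *Per1*, which has 2 starts among these RefSeq promoters, the upstream of the 2 is shown. The GENCODE M21 span of *Per1* begins farther upstream, at 69095217.
Per1, chr11:69098699-69098948, plus strand: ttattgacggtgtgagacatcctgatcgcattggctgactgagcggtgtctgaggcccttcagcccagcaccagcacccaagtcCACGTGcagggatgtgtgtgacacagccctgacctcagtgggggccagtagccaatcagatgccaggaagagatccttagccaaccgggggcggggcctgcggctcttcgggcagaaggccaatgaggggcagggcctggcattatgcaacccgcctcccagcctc
Per3, chr4:151044666-151044915, minus strand: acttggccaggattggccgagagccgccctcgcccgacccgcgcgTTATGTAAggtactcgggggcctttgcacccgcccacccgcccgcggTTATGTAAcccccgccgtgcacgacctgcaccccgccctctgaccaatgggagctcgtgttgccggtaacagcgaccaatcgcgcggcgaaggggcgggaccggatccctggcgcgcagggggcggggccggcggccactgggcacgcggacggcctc
Cry1, chr10:85185055-85185304, minus strand: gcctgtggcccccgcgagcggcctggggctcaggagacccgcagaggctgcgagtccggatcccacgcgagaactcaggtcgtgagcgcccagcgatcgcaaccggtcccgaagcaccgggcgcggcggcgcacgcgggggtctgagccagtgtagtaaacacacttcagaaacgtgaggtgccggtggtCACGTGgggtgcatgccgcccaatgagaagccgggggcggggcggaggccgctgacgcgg
Cry2, chr2:92434070-92434319, minus strand: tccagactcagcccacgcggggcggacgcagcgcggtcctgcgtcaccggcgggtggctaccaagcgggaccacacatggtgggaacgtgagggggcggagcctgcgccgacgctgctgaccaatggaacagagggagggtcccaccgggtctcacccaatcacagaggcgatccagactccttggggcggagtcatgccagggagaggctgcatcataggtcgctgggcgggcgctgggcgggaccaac
*Per1* held an E-box that begins 166 bases before the start, and *Cry1* held one 60 bases before it. *Per3* held D-boxes that begin 205 and 158 bases before the start. *Cry2* held neither motif in this stretch. RefSeq windows of 300 bases (250 before the start and 50 after it) were found for 9 of the 10 clock genes (not for *Per2*), 13 windows in all. Of these 9 genes, 2 held an E-box (*Per1*, *Cry1*), 1 held a D-box (*Per3*) and 1 held a ROR element core, TAGGTCA or TGGGTCA (*Arntl*, beginning 30 bases after a start). Of all 27025 genes with a window, 8.09% held the E-box in at least 1 window, 2.72% the D-box and 7.35% a ROR core. These include genes under 1 FPKM in both libraries. Among the 8864 with a window that reached 1 FPKM, 1073 held the E-box, 159 the D-box and 550 a ROR core. A match is a run of letters, not a shown binding site.

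The differences of the 10 genes formed a graded run as deposited, from -0.43 (*Per1*) to 2.61 (*Cry2*). *Cry2*, *Clock* and *Per2* were at least 4-fold higher in GFP+ on the log2(FPKM + 1) scale, *Per3* was at least 2-fold higher, and none of the 10 was 2-fold lower. *Nr1d2* stood just under 2-fold, while *Nr1d1*, *Cry1*, *Arntl*, *Dbp* and *Per1* lay within 0.43 of 0. Each of the 10 was above 1 FPKM in both libraries, so none entered the comparison through 1 library alone. Of all 11868 genes tested (those that reach 1 FPKM in either library), 7.09% passed the 4-fold rule as higher and 4.59% as lower, against 3 and 0 of the 10 clock genes. At least 2-fold higher were 20.1% of all genes and 4 of the 10, and at least 2-fold lower were 23.1% and 0 of the 10. The median difference was 0.51 over the clock genes and -0.12 over all genes tested. With a pseudocount of 5 in place of 1, *Cry2* alone of the 10 was at least 4-fold higher.

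**Figure D1:**
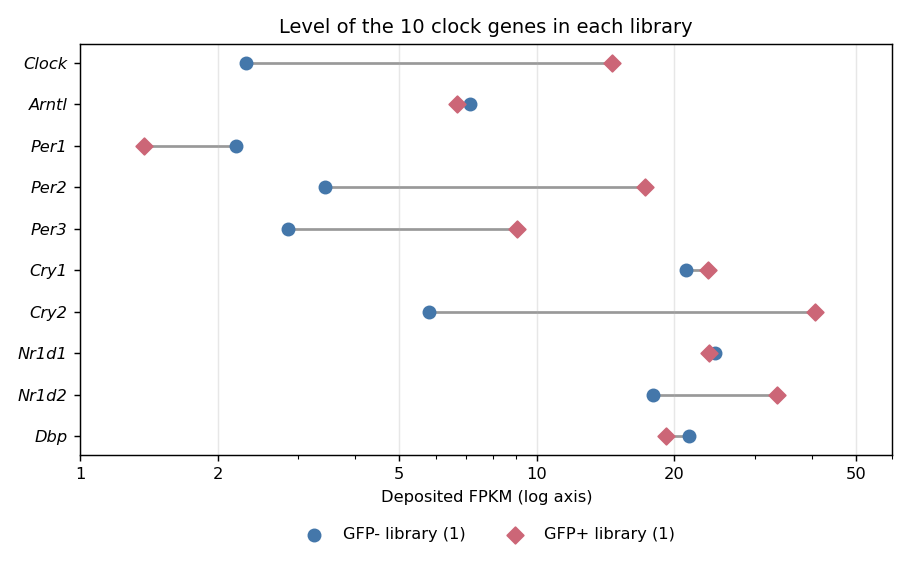
Deposited FPKM of each of the 10 clock genes (log axis) in the GFP- library (circles) and the GFP+ library (diamonds), with 1 library per fraction and no error bars. The long lines belong to *Cry2*, *Clock*, *Per2* and *Per3*, and *Per1* is the lowest gene in both libraries at 2.19 and 1.38 FPKM.

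The libraries themselves differed in ways that touch every value. GFP+ had a lower summed FPKM, at 407210 against 626177 over the 23532 symbols estimated in both libraries. These sums leave out, in both libraries, the 5 rows with too many fragments to estimate in GFP+, *Chga* and *Chgb* among them. How far this omission moves the scaling to the same total was not tested. The median log2 ratio of GFP+ to GFP- over the 5563 genes that reached 10 FPKM in both was -0.50. Setting that median to 0, or giving both libraries the same total, raised the clock gene differences by 0.31 to 0.49 and by 0.39 to 0.74. *Nr1d1*, *Arntl* and *Dbp*, below 0 as deposited, were above 0 under both of these scalings. Of the genes that passed the 4-fold rule 60.7% were higher as deposited, and 87.7% and 91.8% under these scalings. The 6 enterochromaffin markers with an estimate were all at least 4-fold higher in GFP+, among them *Tph1*, the enzyme that starts serotonin synthesis, at 1359 against 17.5 FPKM. *Chga* and *Chgb* had no estimate in GFP+, since Cuffdiff marked their loci as holding too many fragments. All 6 Paneth markers were at least 4-fold lower in GFP+. So were 2 of 6 enterocyte, 2 of 6 goblet and 3 of 7 stem and cycling markers. These 3 lists were mixed as deposited. The enterocyte marker *Sis* was at least 2-fold higher in GFP+, at 183 against 85.5 FPKM. *Apoa4*, *Muc2*, *Fcgbp* and *Mki67* were above 0 by at most 0.35, and the goblet marker *Clca1* stayed under 1 FPKM in both libraries. None of the 6 tuft markers passed the 4-fold rule, but *Il25* and *Gnat3* (listed at 0 in GFP+) stayed under 1 FPKM in both libraries. Of the 4 tuft markers tested, 3 were at least 2-fold lower as deposited. Without a pseudocount *Trpm5*, *Pou2f3* and *Avil* were 6.54, 4.43 and 4.18 times as high in GFP-, while *Dclk1* was higher in GFP+. Under either other scaling 5 Paneth, 0 enterocyte, 2 goblet and 1 of the stem and cycling markers passed the 4-fold rule as lower. Of 6 non-epithelial markers, *Vim* (237 against 4.90 FPKM) and *Pecam1* (10.4 against 0.187 FPKM) passed the 4-fold rule as higher, and the leukocyte gene *Ptprc* was at 0.0224 FPKM in both. Summed FPKM over the markers was 5.15 in GFP- and 250.3 in GFP+ for the non-epithelial list, 10534 and 661 for the Paneth list, and 1486 and 383 for the stem and cycling list. Nearly all of both non-epithelial sums came from *Vim*. *Col1a1*, *Col1a2* and *Acta2* were low, at 1.56, 0.889 and 0.300 FPKM in GFP+ against 0.0106, 0.00322 and 0.0273 in GFP-. The part of these cell type differences in the clock gene values was not tested, and in bulk RNA fewer cells of a type and less RNA per cell cannot be told apart.

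Among the activators, *Clock* and *Arntl* encode the partners of a single complex, yet the libraries differed in the level of *Clock* and hardly in that of *Arntl*. *Clock* (chromosome 5, 76209868 to 76304792 in GENCODE M21 on the mm10 assembly, minus strand) was listed at 2.31 FPKM in the GFP- library and at 14.6 FPKM in the GFP+ library. The GFP+ value was 6.32 times the GFP- value, a log2 difference of 2.24. *Arntl* (chromosome 7, 113207465 to 113314126, plus strand) was at 7.14 FPKM in GFP- and at 6.70 in GFP+, a difference of -0.08. *Arntl* was thus the more abundant partner in GFP-, and *Clock* the more abundant in GFP+. Their ratio within a library, which no scaling of the libraries can change, was 0.324 in GFP- and 2.18 in GFP+. The locus listed for *Clock* is a merged region that also covers *Tmem165*, which shares no exonic base with it and was at 79.1 FPKM in GFP- and at 26.1 in GFP+, the opposite direction.

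*Npas2*, a paralogue of *Clock* that can replace it as the partner of BMAL1, was at 3.91 FPKM in GFP- and at 25.8 in GFP+, 6.60 times as high. It stood at 1.69 times the level of *Clock* in GFP- and 1.77 times in GFP+, so the proportion between these paralogues was nearly the same in both libraries. *Clock* and *Npas2* together summed to 6.22 FPKM in GFP- and to 40.5 in GFP+. *Arntl2*, the paralogue of *Arntl*, was low in both, at 0.597 and 2.65 FPKM, and made up 7.72% of the pair's FPKM in GFP- and 28.4% in GFP+.

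**Figure D2:**
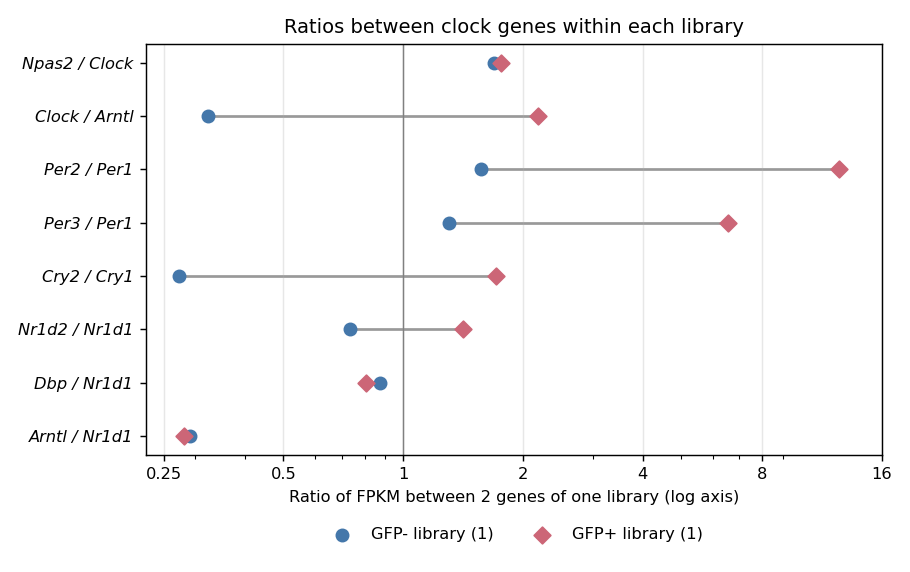
Ratio of the FPKM of 2 clock genes within the same library (log axis), in the GFP- library (circles) and the GFP+ library (diamonds), with 1 library per fraction. Ratios of *Npas2* to *Clock*, *Dbp* to *Nr1d1* and *Arntl* to *Nr1d1* nearly coincide between libraries. Those of *Clock* to *Arntl*, *Cry2* to *Cry1* and *Nr1d2* to *Nr1d1* cross 1, and *Per2* to *Per1* runs from 1.57 to 12.5.

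The period genes, whose proteins form the repressor complex with the cryptochromes, summed to 8.49 FPKM in GFP- and to 27.6 in GFP+, 3.25 times as high, but did not all differ in the same direction. *Per2* (chromosome 1, 91415982 to 91459324, minus strand) was at 3.44 FPKM in GFP- and at 17.2 in GFP+. The latter was 4.99 times as high, with a log2(FPKM + 1) difference of 2.03. *Per3* (chromosome 4, 151003652 to 151044665, minus strand) was at 2.86 FPKM in GFP- and at 9.03 in GFP+, a difference of 1.38 that lay short of the 4-fold rule and passed it, at 2.06, with both libraries set to the same total. *Per1* (chromosome 11, 69095217 to 69109960, plus strand) was at 2.19 FPKM in GFP- and at 1.38 in GFP+, a difference of -0.43. These 3 genes lay close together in GFP-, and in GFP+ *Per2* was listed 12.5 times as high as *Per1*. *Per1* made up 25.8% of their summed FPKM in GFP- and 4.99% in GFP+, and *Per2* 40.6% and 62.3%. *Per1* was the single clock gene whose difference stayed below 0 under both other scalings, at -0.11 and -0.04.

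The cryptochrome pair held the largest difference of the 10 genes. *Cry2* (chromosome 2, 92403646 to 92434043, minus strand) was at 5.80 FPKM in GFP- and at 40.6 in GFP+. The GFP+ value was 7.01 times as high, and the log2 difference was 2.61. Only 4.07% of the genes tested had a difference as high or higher. *Cry1* (chromosome 10, 85131700 to 85185064, minus strand) was at 21.2 FPKM in GFP- and at 23.7 in GFP+, a difference of 0.15. *Cry1* was the major cryptochrome transcript in GFP-, with 78.5% of the pair's FPKM, and *Cry2* the major one in GFP+, with 63.2%. Of the 6320 exonic bases of *Cry2*, 295 are shared with *D930015M05Rik* on the opposite strand, which was at 0.0172 and 0.138 FPKM.

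In the linked loop of nuclear receptors, *Nr1d2* (chromosome 14, 18204054 to 18239127, minus strand) was at 18.0 FPKM in GFP- and at 33.5 in GFP+. The latter was 1.86 times as high, with a log2(FPKM + 1) difference of 0.86. *Nr1d1* (chromosome 11, 98767932 to 98775333, minus strand) was at 24.5 FPKM in GFP- and at 23.8 in GFP+, a difference of -0.04. The more abundant REV-ERB transcript was therefore *Nr1d1* in GFP- and *Nr1d2* in GFP+. The receptor genes *Rora* and *Rorb* stayed under 1 FPKM in both libraries.

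*Dbp* (chromosome 7, 45705088 to 45710203, plus strand), the output factor of the loop, was at 21.5 FPKM in GFP- and at 19.2 in GFP+, a difference of -0.16. The proportions between *Dbp*, *Nr1d1* and *Arntl* were close in the libraries, with *Dbp* at 0.876 and 0.807 times *Nr1d1* and *Arntl* at 0.291 and 0.282 times *Nr1d1* in GFP- and GFP+. All 3 are known for strong daily rhythms in many tissues, *Arntl* in opposite phase to the others. The exons of *Dbp* share 539 of 2993 bases with *Sphk2* on the opposite strand, and those of *Nr1d1* share 263 of 3077 with *Thra*. The labels do not say whether counting used strand, so reads in these stretches cannot be told apart. *Tef*, a relative of DBP, was at 28.8 and 33.9 FPKM, and *Nfil3*, which competes for D-boxes as a repressor, at 6.87 and 3.63 FPKM. *Hlf*, another relative, was under 1 FPKM in both.

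**Figure D3:**
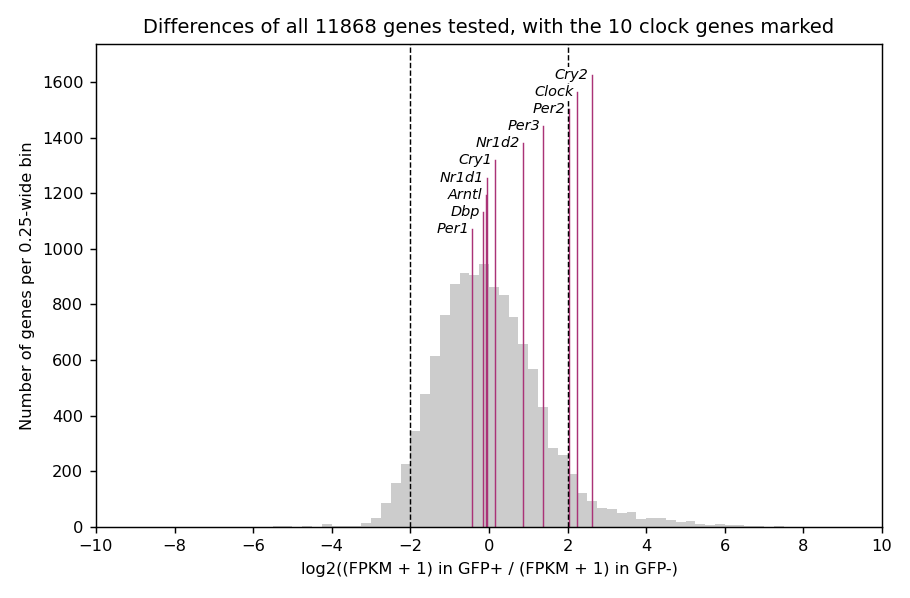
Number of genes at each log2 difference between the GFP+ and GFP- libraries (grey, 11868 genes tested), with a line for each of the 10 clock genes and dashed lines at the 4-fold rule. *Cry2*, *Clock* and *Per2* lie beyond the right dashed line, where 7.09% of all genes lie, and the others lie between the dashed lines.

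The order of levels differed between the libraries. In GFP- it ran from *Nr1d1* (24.5 FPKM) over *Dbp*, *Cry1*, *Nr1d2*, *Arntl*, *Cry2*, *Per2*, *Per3* and *Clock* to *Per1* (2.19 FPKM). In GFP+ it ran from *Cry2* (40.6 FPKM) over *Nr1d2*, *Nr1d1*, *Cry1*, *Dbp*, *Per2*, *Clock*, *Per3* and *Arntl* to *Per1* (1.38 FPKM). *Cry2* stood in the sixth place in GFP- and in the first in GFP+, and *Arntl* in the fifth and the ninth. Among genes of at least 1 FPKM in the same library, *Cry2* was at the 26.3 percentile in GFP- and the 79.6 percentile in GFP+. *Clock* was at the 11.0 and 52.0 percentiles, *Per2* at the 17.5 and 56.8, and *Arntl* at the 30.8 and 31.1. The order of neighbours has no replicate spread to be judged by, and the deposited bounds start at 0 for every clock gene and separate none of them.

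Counting error, estimated from inferred fragments taken as independent, was small beside the larger differences. Low FPKM values fell in steps that appear to be single fragments, which put about 59.8 fragments behind each FPKM and kilobase in GFP+ and 58.6 in GFP-. With the longest annotated transcript as length, the clock gene values would rest on between about 385 fragments (*Per1*, GFP+) and 9668 (*Cry2*, GFP+), an error of 5.10% to 1.02% of the value. On this estimate the 95% counting interval of the log2 ratio of FPKM ran from 2.73 to 2.89 for *Cry2* and from -0.86 to -0.49 for *Per1*, and it included 0 for *Arntl* (-0.19 to 0.01) and *Nr1d1* (-0.11 to 0.02). Amplified fragments are not independent molecules, and the number of molecules is unknown, so these intervals can be too narrow even for counting error. They say nothing of the spread between cultures.

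Of 20 other listed genes of the clock 15 reached 1 FPKM, and of these 1 was at least 4-fold higher (*Npas2*), 1 at least 4-fold lower (*Tipin*) and 12 within 2-fold either way. Over all genes tested 7.09% were at least 4-fold higher and 4.59% lower, so these counts lie near the background. Their median difference was 0.10. Of the kinases that mark PER proteins for destruction, *Csnk1d* was at 88.2 FPKM in GFP- and at 94.6 in GFP+, and *Csnk1e* at 12.8 and 11.4 FPKM. *Csnk1a1*, at 179 and 157 FPKM, and *Gsk3b*, at 2.46 and 3.03 FPKM, also lay well within 2-fold.

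The ubiquitin ligase subunits *Fbxw11* and *Btrc*, which target PER proteins, differed a little more. They were listed in GFP- at 29.2 and 4.62 FPKM, and in GFP+ at 56.9 and 7.81. Neither reached the 2-fold rule as deposited, and both passed it under both other scalings. *Bhlhe40*, an E-box repressor, was at 120 and 151 FPKM. The repressors *Ciart* and *Cipc* had levels of 12.9 and 15.7 FPKM in GFP-, against 10.1 and 15.8 in GFP+.

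*Timeless* and *Tipin*, partners at the DNA replication fork, were both lower in GFP+. *Tipin* was at 102 FPKM in GFP- and at 20.4 in GFP+, a difference of -2.27 that did not pass the 4-fold rule under either other scaling, at -1.79 and -1.68. *Timeless* was at 12.4 and 5.71 FPKM. Beside them the cell division gene *Ccnb1* was at 68.5 FPKM in GFP- and at 13.0 in GFP+ and *Top2a* at 47.9 and 24.4 FPKM, while *Mki67* was at 3.18 and 3.55 FPKM. Their part in the *Tipin* value was not tested.

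**Figure D4:**
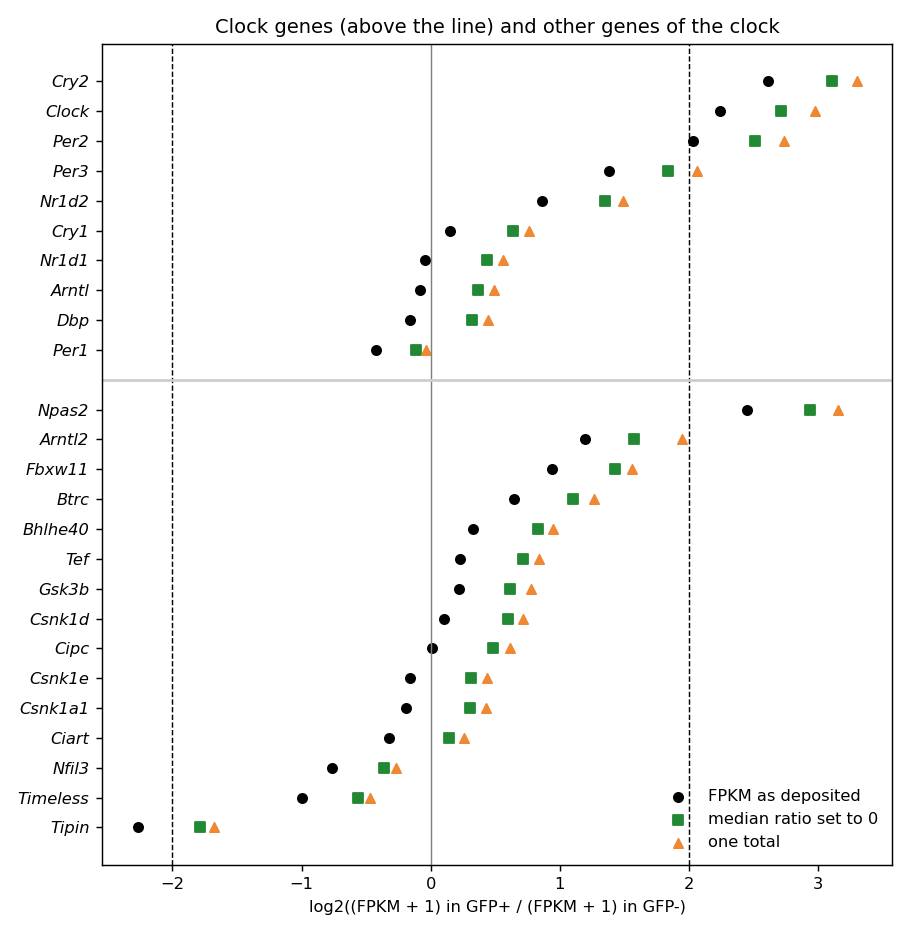
Log2 difference between the GFP+ and GFP- libraries of the 10 clock genes (above the grey line) and 15 other genes of the clock (below it), with FPKM as deposited (circles), with the median ratio set to 0 (squares) and with the same total in both libraries (triangles). Dashed lines mark the 4-fold rule, which *Cry2*, *Clock*, *Per2* and *Npas2* pass under all 3 scalings.

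Genes that clocks drive in many tissues lay on both sides of 0. None of 7 such output genes was 4-fold higher or lower, which is near the shares of all genes tested (7.09% and 4.59%). Their median difference was -0.43 as deposited and turned to 0.04 with the median ratio set to 0 and to 0.16 with the same total in both libraries. *Usp2*, a ubiquitin protease with a strong daily rhythm, was at 11.1 FPKM in GFP- and at 4.78 in GFP+, the single output gene past 2-fold as deposited. Its difference of -1.06 became -0.64 and -0.55 under the other scalings, short of that rule. *Wee1*, a kinase that holds back mitosis, was at 36.1 and 19.7 FPKM, and *Tsc22d3*, which is also induced by glucocorticoids, at 35.4 and 23.8 FPKM. *Noct*, a rhythmic phosphatase listed under its older symbol *Ccrn4l*, was at 4.57 and 9.61 FPKM, a difference of 0.93 that passed the 2-fold rule under the other scalings, at 1.39 and 1.57. *Nampt*, of NAD synthesis, was at 18.2 and 23.1 FPKM, *Tspan4* at 16.7 and 12.2 FPKM and *Por* at 315 and 327 FPKM.

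*Per1* and *Per2* are also known as genes that respond within the hour to stimuli that induce immediate early genes, and cells here were dissociated and sorted before RNA extraction. Of 10 immediate early genes, 5 were at least 4-fold higher in GFP+, 9 at least 2-fold higher and none at least 2-fold lower, with a median difference of 1.99. All genes tested had 7.09% at least 4-fold and 20.1% at least 2-fold higher. With the median ratio set to 0, 7 of the 10 were at least 4-fold higher (10.8% of all genes), and with the same total 9 were (13.4%). *Jun* was at 50.6 FPKM in GFP- and at 539 in GFP+, *Fos* at 98.9 and 409 FPKM and *Dusp1* at 10.5 and 103 FPKM. *Ier2* was the exception, at 583 and 582 FPKM. *Per2* was higher in GFP+ like these genes and *Per1* was not, with *Per2* to *Fos* ratios of 0.0348 and 0.0421 and *Per1* to *Fos* ratios of 0.0222 and 0.00337 in GFP- and GFP+. Summed FPKM over the list was 1095 in GFP- and 2764 in GFP+, and the part of these genes' response in the *Per* values was not tested.

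**Figure D5:**
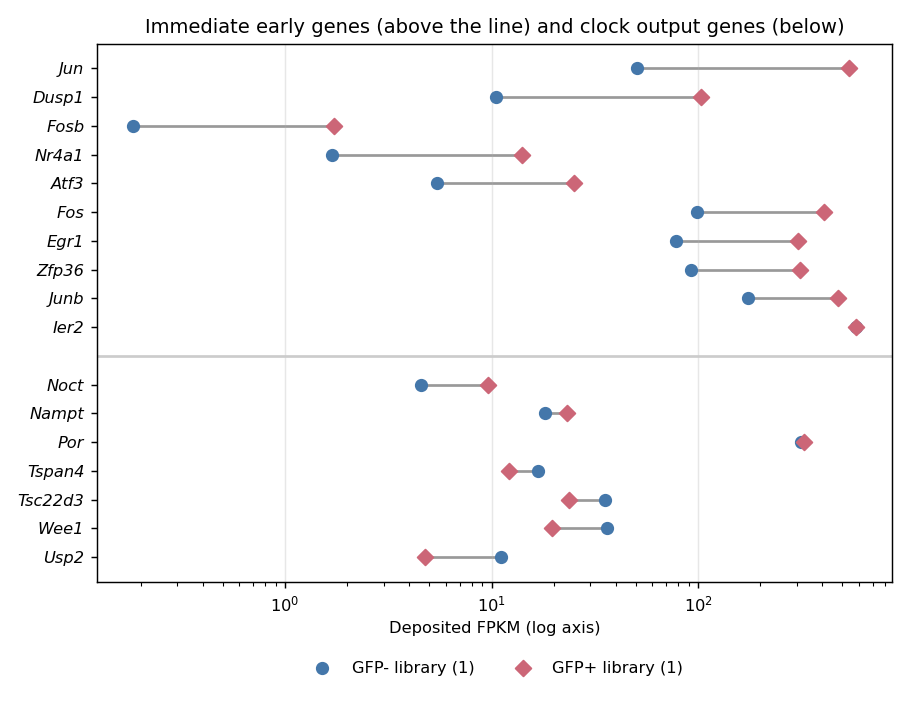
Deposited FPKM (log axis) of 10 immediate early genes (above the grey line) and 7 clock output genes (below it) in the GFP- library (circles) and the GFP+ library (diamonds). Of the immediate early genes 9 lie at least 2-fold higher in GFP+ and *Ier2* coincides, while the output genes lie on both sides.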

How the data were processed

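Per the file headers, the deposited tables give an FPKM, a lower and an upper bound and a status for each of 23793 gene rows. The submitters' processing notes name FastQC, TopHat2 (0.7), Cufflinks, Cuffdiff and mm10. Annotation, library scaling and use of strand were not stated. The 5 GFP+ rows marked as holding too many fragments were treated as not estimated. FPKM was summed per symbol (23532 symbols estimated in both libraries), and the 11868 symbols reaching 1 FPKM in either library were compared as log2(FPKM + 1), GFP+ minus GFP-, a scale that understates the change of low genes. Rules of size were a difference of 2 (4-fold) and, more loosely, of 1 (2-fold). With 1 library per group no test was run. The deposited lower bound is 0 for all but 1 row, and the upper bound was typically 2.35 times the FPKM. For depth, the most populated low step of single-transcript genes longer than 3000 bases (GENCODE M21) was taken as 1 fragment. Of low values, 73.4% of 109 in GFP- and 59.0% of 83 in GFP+ then lay within 0.1 of a whole number, which is no independent check. The clock genes and lists were chosen with earlier results of these data known, and 2 listed genes are not reported here or counted. The text names all 10 clock genes, list genes that reach 1 FPKM, cell type markers and, chosen after values were seen, genes sharing a locus or exons with a clock gene. Of the other genes of the clock under 1 FPKM it also names *Rora*, *Rorb* and *Hlf*, and gives no value for *Bhlhe41* and *Fbxl21*. Alternatives were other pseudocounts, scalings, filters and row statuses. A planned comparison of paralogue proteins was not run. Python 3.11.15, numpy 2.4.6 and pandas 2.3.3 were used.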

Additional observations from a re-analysis of the deposited data

How the results depend on the processing

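No paired analysis was possible because each fraction has 1 library, and for the same reason no library could be left out. The count of clock genes at least 4-fold higher in GFP+ was 3 as deposited, 4 with the same total in both libraries and 1 with a pseudocount of 5, where *Clock* and *Per2* had differences of 1.42 and 1.39. The share of all genes tested past this rule moved as well, from 7.09% to 13.4% and 2.97%. No clock gene was 4-fold lower under any of the 7 alternatives. The median difference of the clock genes was 0.99 with the median ratio set to 0, 1.12 with the same total and 0.86 over genes of at least 5 FPKM. That of the other genes of the clock was 0.60, 0.75 and 0.01 under these settings. All genes tested had medians of 0.35 and 0.50 under the 2 scalings and -0.27 over genes of at least 5 FPKM. Of the other genes of the clock, 0 were 4-fold higher with a pseudocount of 5, where *Npas2* was at 1.79, and 0 were 4-fold lower under either scaling. *Nr1d1*, *Arntl*, *Dbp*, *Ciart*, *Csnk1a1* and *Csnk1e* were below 0 as deposited and above 0 under both scalings, so their sign depends on the scaling. Over 25 genes and 7 alternatives no gene past the 4-fold rule changed sign. The ratios within a library do not depend on the scaling. By the estimated fragments, depth limits *Per1* most, and the spread between cultures is unknown.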

Other observations

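The promoters of all genes were also grouped by the clock motifs. Of 8864 tested genes with a RefSeq promoter window, 1073 held the E-box CACGTG. Their median difference between GFP+ and GFP- was -0.12, as was that of all 8864, and 5.78% of them were at least 4-fold higher against 6.36% of all. The 159 genes with a D-box (TTANGTAA) had a median of -0.14, with 5.03% at least 4-fold higher, and the 550 with a ROR core (TAGGTCA or TGGGTCA) a median of -0.09, with 5.09%.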
